A study of Mus musculus with 6 samples.

Results

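The 10 genes described here encode the transcription factor NRF2 (Nfe2l2), its inhibitor KEAP1 (Keap1), the autophagy receptor p62 (Sqstm1), and enzymes of the antioxidant response and the thioredoxin system. They were taken by symbol from the table of log2 expression values (Nfe2l2, Keap1, Sqstm1, Nqo1, Hmox1, Srxn1, Txn1, Txnrd1, Txn2 and Txnrd2). All 10 were found once among the 55401 genes of the table, and all 10 passed the filter on low values that left 14209 genes for testing. Mutated NIH-3T3 cells, called MU, gave 3 libraries and wild-type NIH-3T3 cells, called WT, gave 3. NIH-3T3 is an established line of mouse embryonic fibroblasts, and both groups carried the same culture label and were grown in serum-containing medium. The genotype label of MU says only that the cells are mutated. It names neither the gene nor the allele, and the labels leave unsaid if MU is 1 clone and whether replicates were separate cultures. The mutation and any other difference that separates these lines therefore cannot be told apart, and the p-values reflect the scatter of these libraries alone, which may be technical. The title of the study concerns errors of mitochondrial translation, oxidative stress and cell cycle arrest.

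NRF2 is held at a low level by KEAP1, which bridges it to a ubiquitin ligase. Electrophiles and oxidants modify cysteines of KEAP1, NRF2 then accumulates, pairs with a small MAF protein and binds antioxidant response elements of its target genes. p62 binds KEAP1 through a short motif and delivers it to autophagy, so a high level of p62 also frees NRF2. Thioredoxins are small proteins that reduce disulfides in peroxiredoxins, ribonucleotide reductase and other enzymes. Thioredoxin reductases, which are selenoproteins, recharge them with electrons from NADPH. Cytosol and mitochondria have separate pairs, Txn1 with Txnrd1 and Txn2 with Txnrd2. NRF2 activity is set largely at the protein level, which RNA sequencing does not measure.

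The core of the antioxidant response element was sought as TGACNNNGC on both strands of RefSeq promoter windows (GRCm38.p6, 250 bases before to 50 after a gene's start). Windows were held for 9 of the 10 genes, 11 windows in all, and 3 windows of 3 genes contained a match. Hmox1 had no window and was not searched. Of all 32851 windows, 12.4% contained one. All matches found are printed. Of the genes whose mRNA fell in MU, Srxn1 and Txnrd1 had a match, Txn1 had 0 and Hmox1 was not searched. Nfe2l2, which also had a match, did not pass the test in MU. A relation between matches and changes in MU was not tested. Each line gives the match in capitals with 10 flanking bases on each side, along the gene's own strand.
Nfe2l2: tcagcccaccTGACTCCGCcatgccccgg
Srxn1: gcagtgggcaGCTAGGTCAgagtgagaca
Txnrd1: ctggatttttGCTTTGTCAttctgacacg
The Nfe2l2 stretch is chr2:75704885-75704913 on the minus strand, and its match begins at base -240 from the start. The Srxn1 stretch is chr2:152105542-152105570 on the plus strand. Its match begins at base 29 and reads as the core on the opposite strand. The Txnrd1 stretch is chr10:82859104-82859132 on the plus strand, in one of the 3 start windows of that gene, with the match at base -92 on the opposite strand. The 250 bases before that Txnrd1 start, chr10:82858956-82859205, are shown whole with the same match in capitals.
Txnrd1: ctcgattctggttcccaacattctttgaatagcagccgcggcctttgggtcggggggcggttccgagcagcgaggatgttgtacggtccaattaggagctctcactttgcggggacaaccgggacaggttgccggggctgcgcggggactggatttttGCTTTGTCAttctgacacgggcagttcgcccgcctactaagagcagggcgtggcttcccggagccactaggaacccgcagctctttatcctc
A match is a stretch of letters and not evidence of binding.

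Levels are in TPM, reads per length of transcript brought to a common sum in every library, so levels of different genes can be set side by side. Sequencing depth is unknown, and no counting interval can be given. Libraries correlated at 0.971 to 0.976 within MU, 0.949 to 0.966 within WT and 0.937 to 0.945 between the groups (Pearson's r over genes, not a test on replicates). The second principal component, with 22.1% of the variance, set WT replicate 2 apart from WT replicate 3. Transcripts of mtDNA made up 13.9% to 15.3% of TPM in MU and 8.6% to 12.4% in WT, and calls of the 10 genes and counts of calls that change when they are left out of the scaling are given with both values. Fibroblast markers were abundant, with summed levels of 7190 to 7530 TPM in MU libraries and 4790 to 6100 TPM in WT libraries over 8 genes. Of these, Col1a1, Col1a2 and Thy1 rose, and Lum averaged 0.0645 TPM in MU and 1.19 TPM in WT. Summed levels of 6 epithelial markers were 0.41 to 0.666 TPM in MU and 0.24 to 0.662 TPM in WT, with Cldn4 at 0 in every library. Those of 4 adipocyte markers were 0.0556 to 0.218 TPM in MU and 0.316 to 0.47 TPM in WT, with Lep at 0 throughout. Markers of leukocytes (6 genes, Tyrobp at 0 throughout) summed to 9.49 to 11 TPM in MU and 4.03 to 5.14 TPM in WT. Markers of skeletal muscle (5 genes, Myod1 and Myog at 0 throughout) summed to 3.87 to 4.26 TPM in MU and 0.917 to 0.99 TPM in WT. Markers of endothelium (5 genes) summed to 0.786 to 1.26 TPM in MU and 2.07 to 3.35 TPM in WT.

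As fitted, the mutated cells had less mRNA of the cytosolic thioredoxin pair, of sulfiredoxin and of heme oxygenase. The call of Txn1 held under 6 of 18 alternatives. The mRNAs of the mitochondrial thioredoxin pair, of Nqo1 and of Keap1 did not pass the test. A difference between the cytosolic and mitochondrial pairs was asked separately, as ratios, and neither ratio could pass with 3 libraries a group. Of the 10 genes, 4 fell (Hmox1, Txnrd1, Srxn1 and Txn1), 0 rose and 6 did not pass at an adjusted p under 0.05 (limma on log2(TPM + 1), Benjamini-Hochberg over all 14209 genes). Without adjustment 6 of the 10, and 33.4% of all tested genes, had a p under 0.05 (limma). Among all tested genes 11.6% fell and 7.12% rose, 18.8% in all. The excess of falls depended on the scaling, with 1012 rises and 1655 falls as fitted, 1153 and 1228 once mtDNA-encoded genes were left out of the scaling, 1278 and 1362 with scaling by median of ratios, and 1262 and 1322 with quantile normalization. Under each of these 3 scalings 1 of the 10 genes rose (Sqstm1) and 3 fell, Txn1 no longer passing. Values of the groups did not overlap for 6 of the 10 genes, against 39.2% of all tested genes. The median log2 fold change over the 10 genes was -0.22 and that of all tested genes -0.05. In bulk RNA, fewer cells with a transcript and less of it per cell cannot be told apart. The authors' deposited table, which gives 1 log2 fold change and adjusted p per gene, passes 5 of the 10, the same 4 as lower and Sqstm1 as higher, where it passes 21.1% of the genes that have an adjusted p.

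**Figure D1:**
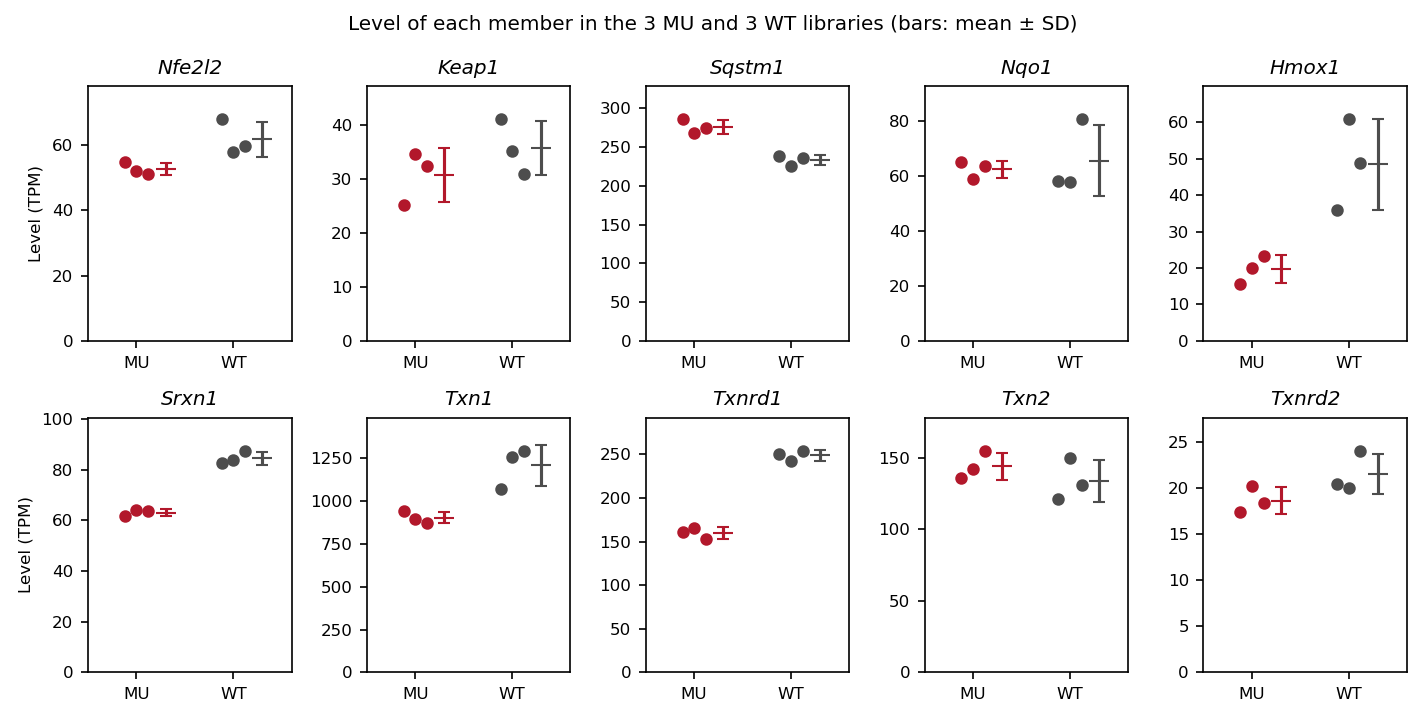
Level in TPM (vertical axes, each from 0) of the 10 genes in the 3 MU and the 3 WT libraries, as points, with the mean and SD of each group as a bar beside them. Txnrd1 lies at 153 to 166 TPM in MU and 242 to 254 TPM in WT, whereas the points of Nqo1, Keap1, Txn2 and Txnrd2 overlap between the groups.

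Nfe2l2 (ENSMUSG00000015839.6, chromosome 2, 75675513 to 75704641, minus strand, GRCm38) stood at 54.6, 52.0 and 51.0 TPM in MU libraries and 67.8, 57.8 and 59.5 TPM in WT libraries. Every MU library was below every WT library, but the gap between the highest MU and the lowest WT value was small. Its log2 fold change was -0.23 (SE 0.09, 95% interval -0.44 to -0.01), short of the threshold (limma adjusted p = 0.138). In the authors' deposited table its log2 fold change is -0.17, with an adjusted p of 0.317. A small nuclear RNA gene lies within Nfe2l2 on the same strand, at 1.39 to 8.06 TPM in MU and 2.34 to 5.74 TPM in WT.

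Keap1 (ENSMUSG00000003308.15, chromosome 9, 21229730 to 21239361) had 25.1, 34.6 and 32.4 TPM in MU libraries and 41.0, 35.2 and 30.9 TPM in WT libraries. The groups overlapped, with MU replicate 1 the lowest and WT replicate 1 the highest. The log2 fold change was -0.21 (SE 0.16, 95% interval -0.59 to 0.16, limma adjusted p = 0.388). Nfe2l2 exceeded Keap1 in every library. Their difference on the log2(TPM + 1) scale was 0.77 ± 0.28 in MU and 0.78 ± 0.13 in WT (mean ± SD, n = 3 each). The change of this difference, -0.01, gave p = 1.0 in an exact permutation test (two-sided), and its sign turned with quantile normalization (0.0246), after subtracting from each gene the median fold change of its 40 chromosomal neighbours relative to the median of all genes, called position centring here (0.0617), and without MU replicate 2 (0.0857), MU replicate 3 (0.0532) or WT replicate 3 (0.0617). An antisense gene overlaps the 3′ part of Keap1 on the other strand at 4.25 to 4.94 TPM in MU and 3.7 to 5.74 TPM in WT, and no source used here says whether counting used strand.

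Sqstm1 (ENSMUSG00000015837.15, chromosome 11, 50199366 to 50210827) was the second most abundant of the 10 mRNAs in MU and the third in WT. Its level was 286, 268 and 275 TPM in MU libraries and 238, 226 and 236 TPM in WT libraries. All MU values lay above all WT values, the only such case among the 10. The log2 fold change was 0.24 (SE 0.08, 95% interval 0.06 to 0.42) and did not pass as fitted (limma adjusted p = 0.069). It passed after rescaling without mtDNA-encoded genes (0.31, limma adjusted p = 0.049), with scaling by median of ratios (0.31, 0.0284), with quantile normalization (0.39, 0.0152) and with the GC and length correction (0.30, 0.0331). The authors' deposited table lists it as higher, at a log2 fold change of 0.29 and an adjusted p of 0.0196. The 40 nearest protein-coding genes on chromosome 11 had a median log2 fold change of 0.10. After subtraction of that local median, relative to the all-gene median of -0.05, the value for Sqstm1 was 0.09 (limma adjusted p = 0.46). Mrnip overlaps its end on the other strand, at 3.95 to 4.06 TPM in MU and 1.63 to 4.25 TPM in WT.

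Nqo1 encodes a quinone reductase and Hmox1 the inducible heme oxygenase, both widely used as readouts of NRF2. Hmox1 passed the test and Nqo1 did not, and the difference between them was not tested. Nqo1 (ENSMUSG00000003849.8, chromosome 8, 107388225 to 107403206) had 65.0, 58.9 and 63.5 TPM in MU libraries and 58.4, 57.9 and 80.7 TPM in WT libraries. Its groups overlapped, and WT replicate 3 alone stood above all MU values. The log2 fold change was -0.05 (SE 0.14, 95% interval -0.40 to 0.29, limma adjusted p = 0.828). This sign turned when TPM was rescaled without mtDNA-encoded genes (0.0094), under median-of-ratios scaling (0.0098), with quantile normalization (0.0589), after position centring (0.25) and without WT replicate 3 (0.10), and it passed under none of the 18 alternatives.

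Hmox1 (ENSMUSG00000005413.8, chromosome 8, 75093621 to 75100589, plus strand) had the largest fold change of the 10 genes. Its level was 15.6, 20.1 and 23.4 TPM in MU libraries and 35.9, 60.8 and 48.8 TPM in WT libraries. No MU library reached the lowest WT value, although the WT libraries spread widely. It fell by 1.24 on the log2 scale (SE 0.22, 95% interval -1.77 to -0.71, limma adjusted p = 0.0124), to 0.422 times the WT level. The call held under all 18 alternatives, with adjusted p of 0.00803 to 0.0491 (limma). Its enzyme opens the heme ring and releases iron, carbon monoxide and biliverdin, and its gene is also repressed by BACH1.

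Both Nqo1 and Hmox1 lie on chromosome 8, where 80.4% of 622 tested protein-coding genes had a lower mean in MU, at a median log2 fold change of -0.32. Of the 40 protein-coding genes nearest to Hmox1, 33 had a lower mean in MU, and 12 fell and 0 rose past the threshold. Of the 40 nearest to Nqo1, 34 had a lower mean, and 14 fell and 1 rose. The neighbours' medians were -0.34 for Hmox1 and -0.36 for Nqo1. After subtraction of these local medians, relative to the median of all genes, Hmox1 was at -0.96 (limma adjusted p = 0.0334) and Nqo1 at 0.25 (0.297). For the other genes the neighbours' medians lay between -0.19 at Txn1 and 0.21 at Txn2.

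**Figure D2:**
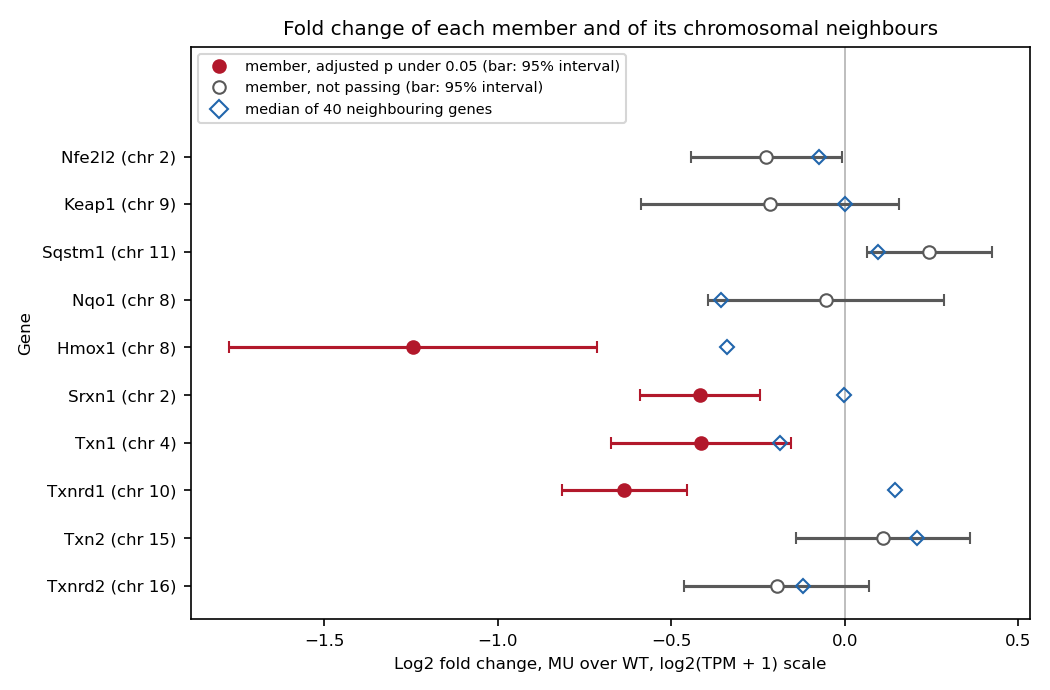
Log2 fold change of MU over WT (horizontal axis) of each gene as a circle with its 95% interval, filled where the adjusted p is under 0.05, and the median of its 40 neighbouring protein-coding genes as a diamond. Hmox1, at -1.24, lies well below its neighbours' median of -0.34, while Nqo1, at -0.05, lies above its neighbours' median of -0.36.

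Srxn1 encodes sulfiredoxin, which restores peroxiredoxins whose active cysteine has been overoxidized. The gene (ENSMUSG00000032802.8, chromosome 2, 152105516 to 152111376) had 61.7, 64.0 and 63.6 TPM in MU libraries and 82.5, 83.7 and 87.5 TPM in WT libraries. The groups were well apart and each was narrow. Srxn1 fell by 0.42 on the log2 scale (SE 0.07, 95% interval -0.59 to -0.24, limma adjusted p = 0.0115), to 0.749 times the WT level. The call was lost without MU replicate 1 (0.0655), MU replicate 2 (0.0615) or MU replicate 3 (0.0546), while the log2 fold change stayed between -0.43 and -0.39 when any 1 library was left out. Its neighbours had a median of -0.002, and it passed after position centring (-0.47, limma adjusted p = 0.00895).

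Txnrd1 encodes cytosolic thioredoxin reductase. The gene (ENSMUSG00000020250.10, chromosome 10, 82833951 to 82897712) was at 161, 166 and 153 TPM in MU libraries and 250, 242 and 254 TPM in WT libraries. The difference between the groups was many times the spread within either, with means of 159.8 ± 6.41 TPM in MU and 248.8 ± 6.09 TPM in WT (SD, n = 3 each). It fell by 0.64 on the log2 scale (SE 0.08, 95% interval -0.82 to -0.46, limma adjusted p = 0.00332), to 0.644 times the WT level, with the smallest adjusted p of the 10 genes. All 18 alternatives kept the call (limma adjusted p of 0.00133 to 0.0358). Its chromosomal neighbours had a median of 0.15, in the other direction, and after position centring the value was -0.84. Eid3 lies within Txnrd1 on the same strand at 1.81 to 1.96 TPM in MU and 1.96 to 4.26 TPM in WT.

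Txn1, its substrate, was the most abundant of the 10 mRNAs in both groups. The gene (ENSMUSG00000028367.5, chromosome 4, 57943373 to 57956411) had 942, 898 and 875 TPM in MU libraries and 1073.9, 1259.7 and 1295.1 TPM in WT libraries. All MU values were below all WT values, and WT replicate 1 was the nearest to them. Txn1 fell by 0.41 on the log2 scale (SE 0.11, 95% interval -0.67 to -0.15), close to the threshold (limma adjusted p = 0.0426). The call was lost under 12 of 18 alternatives, among them without MU replicate 1 (0.123), MU replicate 2 (0.159), MU replicate 3 (0.153), WT replicate 2 (0.0509) or WT replicate 3 (0.0633), and after rescaling without mtDNA-encoded genes (-0.35, 0.0839). Its neighbours had a median of -0.19, and after position centring the value was -0.28 (0.135). A pseudogene of it, Txn-ps1, was listed at 0 in every library.

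The mitochondrial pair is placed beside it. Txn2 (ENSMUSG00000005354.16, chromosome 15, 77915047 to 77929006) had 136, 142 and 155 TPM in MU libraries and 121, 150 and 131 TPM in WT libraries. These values overlapped, at a log2 fold change of 0.11 (SE 0.11, 95% interval -0.14 to 0.36, limma adjusted p = 0.52), which turned to -0.15 after position centring. Txnrd2 (ENSMUSG00000075704.16, chromosome 16, 18426384 to 18479073) was the least abundant of the 10 mRNAs, at 17.4, 20.3 and 18.4 TPM in MU libraries and 20.5, 20.1 and 24.1 TPM in WT libraries. Its groups also overlapped (log2 fold change -0.20, SE 0.11, 95% interval -0.46 to 0.07, limma adjusted p = 0.272).

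Whether the cytosolic genes fell relative to the mitochondrial ones was asked within each library, as the difference of log2(TPM + 1). Txnrd1 over Txnrd2 was 3.03 ± 0.09 in MU and 3.47 ± 0.11 in WT, a change of -0.44 (mean ± SD, n = 3 each). Txn1 over Txn2 was 2.64 ± 0.15 in MU and 3.17 ± 0.12 in WT, a change of -0.52. For both pairs every MU library lay below every WT library. In an exact permutation test (two-sided) each gave p = 0.1, the lowest value possible with 3 libraries a group, and 0.15 after adjustment over the 3 gene pairs compared, so neither could pass. Neither sign turned under any of the 10 alternatives run for these ratios, but after position centring the change of Txn1 over Txn2 was -0.13 (exact permutation test, two-sided, p = 0.4) and its groups overlapped. That of Txnrd1 over Txnrd2 was then -0.71, with groups still apart.

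**Figure D3:**
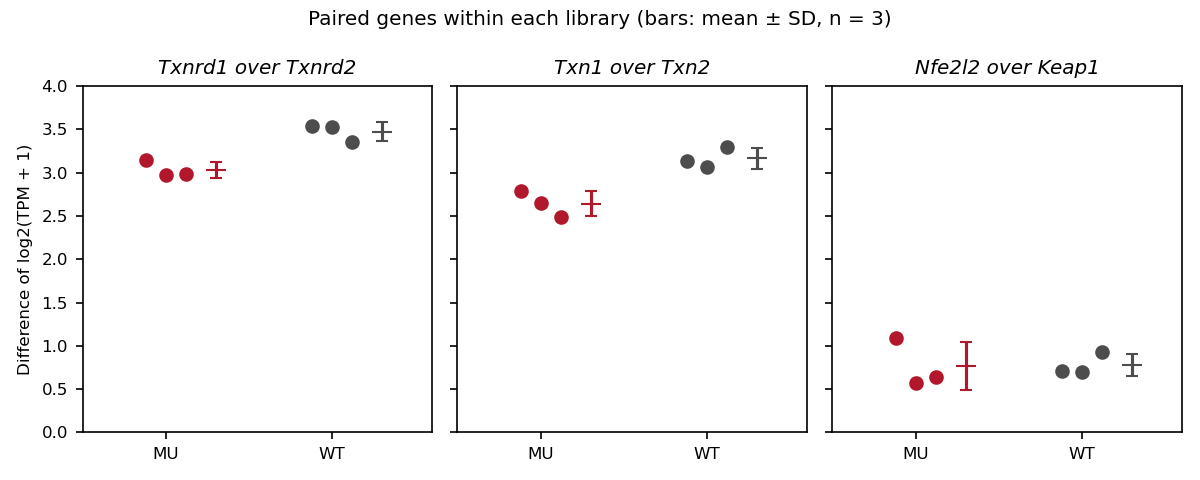
Difference of log2(TPM + 1) between the paired genes within each library (vertical axis) for the 3 MU and the 3 WT libraries, with mean and SD of each group as a bar. The points of Txnrd1 over Txnrd2 and of Txn1 over Txn2 do not overlap between MU and WT, and those of Nfe2l2 over Keap1 do.

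Over 8091 other protein-coding genes averaging 10 TPM or more, likeness to a gene was measured as the root mean square difference of log2(TPM + 1), each centred on its mean over the 6 libraries. Nearest to Nfe2l2 were Sephs1 (0.0222), E2f7 (0.0256) and Phrf1 (0.0297). E2f7 was at 20.3 ± 0.695 TPM in MU and 24.5 ± 2.79 TPM in WT. Nearest to Txnrd1 were Tent4b (0.0186), Galc (0.0297) and Tmem248 (0.0303). Tent4b was at 16.9 ± 0.508 TPM in MU and 27.1 ± 0.789 TPM in WT (SD, n = 3 each). Among the 10 genes themselves, Srxn1 was the nearest to Txnrd1 (0.117, the place 347 of 8091) and Txn1 the next (0.144, 637), while Hmox1 (0.421, 5906) and Sqstm1 (0.442, 6202) were the farthest. Nearest to Nfe2l2 among them was Srxn1 (0.136, 1538), and Hmox1 was the farthest (0.613, 7876). These distances are descriptions over 6 libraries.

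Other genes of the pathway were followed in 6 lists with 106 distinct genes, of which 102 were tested. Of these, 13 rose and 20 fell, at a median log2 fold change of -0.04 where all genes had -0.05. Of all tested genes 7.12% rose and 11.6% fell, the background for the counts of each list as well. After rescaling without mtDNA-encoded genes 27 listed genes passed in place of 33. Without MU replicate 1 or MU replicate 2 the passing genes numbered 13 in all, without MU replicate 3 they numbered 15 and without WT replicate 1 they numbered 16.

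Of 16 tested regulators and partners of NRF2, 1 rose and 3 fell, with a median of 0.01. Among all tested genes 7.12% rose and 11.6% fell. Maff, a small MAF protein, fell to 10.2 ± 0.0471 TPM in MU, against 22.2 ± 0.618 TPM in WT (log2 fold change -1.05, limma adjusted p = 0.00101). Mafg, another small MAF protein, fell by 0.35 (limma adjusted p = 0.0468), a call lost without WT replicate 1, WT replicate 3 or any 1 MU library, and kept under 5 of 18 alternatives in all. Bach2, a repressor of the CNC family, rose to 5.45 ± 1.3 TPM in MU, against 0.869 ± 0.509 TPM in WT. It reached 1 TPM in 3 libraries only through MU, with 4.95, 6.93 and 4.47 TPM in MU libraries and 0.526, 0.625 and 1.45 TPM in WT libraries, and with a minimum of 5 TPM it was not tested and the list had 0 rises. Bach1, which competes with NRF2 at Hmox1, was at 9.74 ± 0.674 TPM in MU and 8.90 ± 0.789 TPM in WT (0.12, limma adjusted p = 0.526). Pgam5, a mitochondrial phosphatase that binds KEAP1, fell by 0.42 (0.0169), but not past the threshold without any 1 of the MU libraries or WT replicate 1. Chd6 was at 23.9 ± 2.65 TPM in MU and 21.1 ± 3.26 TPM in WT (limma adjusted p = 0.426). The list's falls numbered 1 without WT replicate 1 or any 1 MU library, 2 without WT replicate 3 and 2 with each other scaling.

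Known NRF2 target genes outside the 10 moved in both directions. Of 32 tested, 7 rose and 6 fell, with a median of -0.16. Gclm, the modifier subunit of glutamate-cysteine ligase, was at 172 ± 11 TPM in MU and 419.7 ± 44.7 TPM in WT (log2 fold change -1.28, limma adjusted p = 0.0011). Gsr, glutathione reductase, was at 59.6 ± 3.42 TPM in MU and 135.5 ± 5.31 TPM in WT (-1.17, 0.000535), and it too lies on chromosome 8. Cbr3, a carbonyl reductase, fell by 0.54 (0.0113), but not past the threshold without MU replicate 1 or 2. Ephx1, microsomal epoxide hydrolase, was at 110.6 ± 8.01 TPM in MU and 30.4 ± 4.34 TPM in WT (1.84, limma adjusted p = 0.000502). Abcc5, an efflux transporter, was at 103.1 ± 6.82 TPM in MU and 52.9 ± 3.79 TPM in WT (0.95). Gsta4, a glutathione transferase, was at 136.9 ± 3.69 TPM in MU and 78.0 ± 0.571 TPM in WT (0.80). The rises numbered 3 or 4 and the falls 2 or 3 without WT replicate 1 or any 1 MU library, and 9 rose and 4 fell after rescaling without mtDNA-encoded genes.

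Substrates and relatives of thioredoxin moved in both directions. Of 30 tested, 3 rose and 8 fell, with a median of -0.08. Prdx4, the peroxiredoxin of the endoplasmic reticulum, fell to 87.7 ± 7.24 TPM in MU, against 155.2 ± 11.2 TPM in WT (-0.82, limma adjusted p = 0.00337). Rrm2, the small subunit of ribonucleotide reductase, fell to 74.3 ± 4.41 TPM in MU, against 156.7 ± 12 TPM in WT (-1.06, 0.00124), and is also a gene of S phase. Methionine sulfoxide reductases, which thioredoxin recharges, differed among themselves. Msrb3 rose to 73.96 ± 2.18 TPM in MU, against 29.0 ± 2.02 TPM in WT (1.32, 0.000453). Msrb2, a mitochondrial member, was listed at 0 in all MU libraries and at 4.3, 2.96 and 4.7 TPM in WT libraries, through which alone it was tested. Msrb1, a selenoprotein, rose by 0.37 (limma adjusted p = 0.0427), a call lost without WT replicate 1, WT replicate 2 or any 1 MU library. Txndc9 rose by 0.70 (0.0153), but not past the threshold without any 1 MU library. The falls numbered 4 without WT replicate 1 or any 1 MU library, 5 without WT replicate 3, 13 without WT replicate 2 and 5 after rescaling without mtDNA-encoded genes. Its rises numbered 1 without any 1 MU library, 2 without WT replicate 1, 1 after position centring, and 4 after rescaling without mtDNA-encoded genes.

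Of 11 tested partners of heme oxygenase in heme turnover and iron storage, 0 rose and 3 fell, with a median of -0.10. Alas1, which begins heme synthesis, fell to 9.29 ± 1.6 TPM in MU, against 25.9 ± 2.45 TPM in WT (-1.39, limma adjusted p = 0.00194). Fth1, the ferritin heavy chain, fell to 2902.0 ± 30.8 TPM in MU, against 4051.0 ± 400.0 TPM in WT (-0.48, 0.0407), and Pgrmc1, a heme-binding protein, fell by 0.44 (0.0317). Both of these calls were lost without WT replicate 1 or any 1 MU library, which left 1 fall in the list, as did rescaling without mtDNA-encoded genes. Without WT replicate 3 the list had 1 rise and 2 falls, Pgrmc1 no longer passing. Blvrb, a biliverdin reductase, was at 220.1 ± 9.06 TPM in MU and 180.7 ± 9.75 TPM in WT (0.28, 0.0555), and it passed as the list's 1 rise under each of the 3 other scalings, after position centring and without WT replicate 3. The constitutive heme oxygenase Hmox2 was at 54.6 ± 2.24 TPM in MU and 49.6 ± 10.2 TPM in WT (0.16, limma adjusted p = 0.543). Por, the reductase that passes electrons to heme oxygenase, was at 67.3 ± 4.00 TPM in MU and 61.2 ± 13.6 TPM in WT (0.16, 0.574).

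Relatives of p62 in selective autophagy gave 1 rise and 0 falls among 13 tested genes, with a median of -0.01. Calcoco1, an autophagy receptor, rose to 14.9 ± 0.625 TPM in MU, against 7.40 ± 3.0 TPM in WT (0.99, limma adjusted p = 0.0439), a call lost without WT replicate 1 or any 1 MU library and after position centring. Gabarapl1 was at 45.8 ± 0.932 TPM in MU and 57.6 ± 6.09 TPM in WT (-0.32, 0.0674), and Gabarapl2 at 75.4 ± 6.82 TPM in MU and 122.9 ± 36.9 TPM in WT (-0.66, 0.0787). The log2 fold changes of Tax1bp1 (-0.13), Gabarap (0.18) and Atg7 (0.32) did not pass either (limma adjusted p of 0.432, 0.46 and 0.313). Without WT replicate 2 this list had 1 fall.

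Thioredoxin reductases need selenocysteine, which is inserted at a UGA codon by a dedicated set of factors. Of 8 tested genes of this set, 1 rose and 1 fell, with a median of 0.07. Pstk, the kinase that prepares the charged tRNA, rose to 36.6 ± 2.30 TPM in MU, against 27.0 ± 2.28 TPM in WT (0.42, limma adjusted p = 0.0293). Sephs2, selenophosphate synthetase and itself a selenoprotein, fell to 56.9 ± 0.486 TPM in MU, against 78.6 ± 10.4 TPM in WT (-0.45, 0.0328). Both calls were lost without WT replicate 1 or any 1 MU library, and that of Pstk also without WT replicate 3. That of Sephs2, the only fall, was also lost with quantile normalization, once mtDNA-encoded genes were left out of the scaling, with the GC and length correction, without trend and with no filter. Without WT replicate 2 the falls numbered 2. The log2 fold changes of Sephs1 (-0.21), Eefsec (-0.30), Trnau1ap (0.10) and Rpl30 (0.40) did not pass (limma adjusted p of 0.159, 0.263, 0.514 and 0.445).

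**Figure D4:**
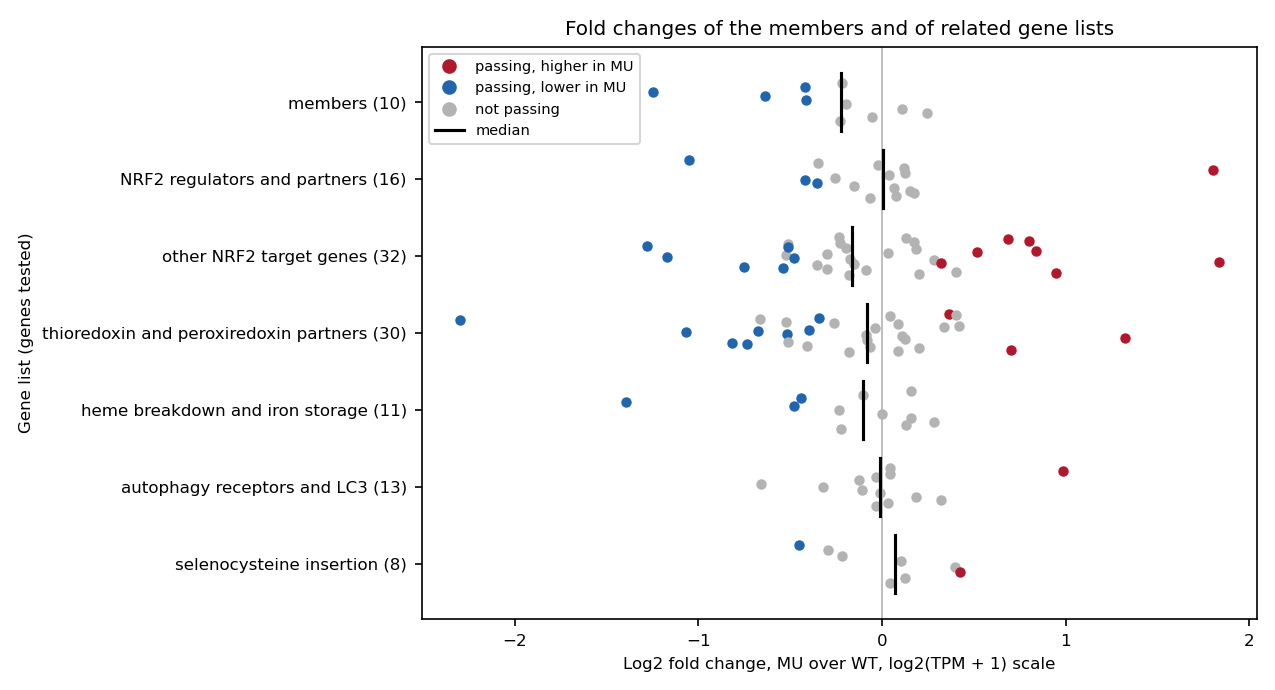
Log2 fold change of MU over WT (horizontal axis) of each tested gene, by list (vertical axis, number of genes in parentheses), with passing genes in red where higher and in blue where lower, others in grey, and the list's median as a black line. Passing genes lie on both sides of 0 in the list of other NRF2 targets, with 7 higher and 6 lower as fitted. The 10 genes described here have 4 lower and 0 higher as fitted. With each of the 3 other scalings they have 3 lower and 1 higher.

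**Figure D5:**
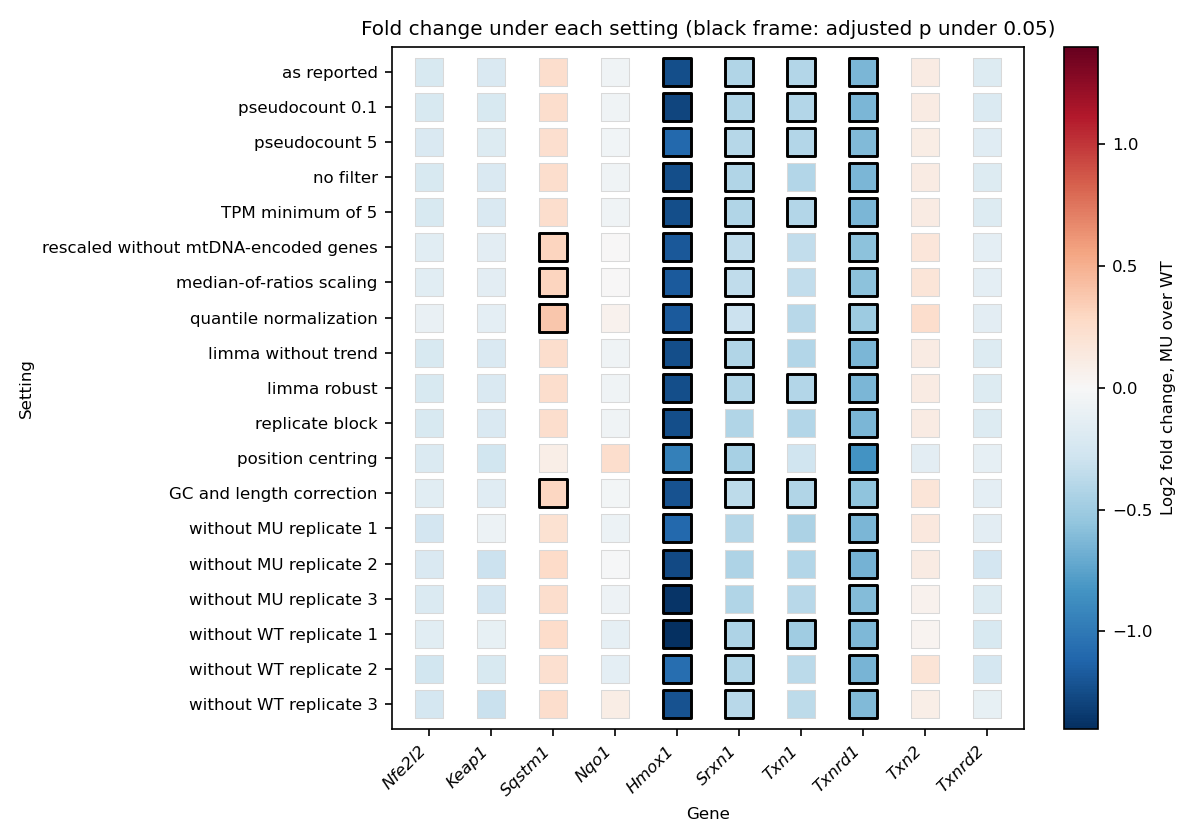
Log2 fold change of MU over WT as colour for each of the 10 genes (horizontal axis) under each processing setting (vertical axis), framed in black where the adjusted p is under 0.05. Hmox1 and Txnrd1 are framed in every row, Txn1 in the reported setting and 6 of the 18 alternatives, and Sqstm1 in 4 alternatives.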

How the data were processed

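RNA from 3 MU and 3 WT samples of NIH-3T3 was made into poly(A) libraries with a strand-marking kit, per the labels. The submitters' processing notes name the build mm10 and, without roles, DESeq2 1.20.0, featureCounts 1.5.0-p3, HISAT2 2.05.0 and FastQC 0.11.4. The authors deposited log2(TPM + 1) values per library, and a table of log2 fold changes, p-values and group mean TPM. No source used here gives the computation of TPM or the strand setting. Values were returned to TPM, and genes with at least 1 TPM in at least 3 libraries were tested as log2(TPM + 1) with limma 3.58.1 in R 4.3.3 (moderated, intensity trend, no covariate, two-sided). Fold changes on this scale understate those of low genes. Identifiers of 55141 genes matched GENCODE M21 (GRCm38, the assembly of mm10), and promoters come from RefSeq (GRCm38.p6). Gene pairs were compared with exact permutation tests (SciPy 1.17.1). The fits were also run on simulated data, drawn with independent normal scatter for each gene. Such data lack the scatter that genes of a library share, and no result here rests on them.

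Genes named are the 10 members, per list the 3 genes higher and the 3 lower in MU of smallest adjusted p, and the 3 genes most like Nfe2l2 and Txnrd1. Members, lists and tests were chosen with earlier results of these data known. Alternatives were pseudocounts of 0.1 and 5, no filter, a minimum of 5 TPM, 3 other scalings, limma without trend or robust, a replicate block, position centring on 20 protein-coding genes on each side, a loess correction for GC content and length (span 0.3), and leaving out each library.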

Additional observations from a re-analysis of the deposited data

How the results depend on the processing

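Each of the 10 genes was refitted under 18 alternatives. Hmox1 (log2 fold change -1.44 to -0.96) and Txnrd1 (-0.84 to -0.51) kept their call in all, and Nfe2l2, Keap1 and Txnrd2 kept their sign and did not pass in any. Calls of Txn1 were lost with no filter (-0.41, limma adjusted p = 0.126), without trend (-0.41, 0.0527), after position centring (-0.28, 0.135), and under the scalings by quantiles (-0.39, 0.0532), by median of ratios (-0.35, 0.0919) and by the total without mtDNA-encoded genes (-0.35, 0.0839). Leaving out 1 library gave -0.50 to -0.36 for Txn1, -0.43 to -0.39 for Srxn1 and -0.14 to 0.10 for Nqo1. Sqstm1 passed at 0.31 with each of 2 scalings (no mtDNA-encoded genes, and median of ratios), at 0.39 with quantile normalization and at 0.30 with the GC and length correction. The sign of Nqo1 turned with those scalings (0.0094, 0.0098 and 0.0589) and after position centring (0.25), and that of Txn2 after position centring (-0.15). The change of Nfe2l2 over Keap1, -0.01, became 0.0246 with quantile normalization, 0.0617 after position centring and -0.17 to 0.0857 without 1 library. Apart from what these constructions remove, the cause was not tested.

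Replicate numbers are shared between the groups, but the labels do not say that they mark a shared culture or day. The numbers were therefore not taken as pairs. Deviations from the group mean correlated at 0.05, 0.02 and -0.07 between same-numbered libraries, and at -0.14 to 0.12 between differently numbered ones. With 3 libraries a group, these correlations cannot decide whether libraries were paired. With a replicate block 1093 genes passed in place of 2667, 2 of the 10 members in place of 4 (Txn1 at -0.41, adjusted p = 0.143, and Srxn1 at -0.42, 0.0715, were lost, limma) and 15 listed genes in place of 33. Leaving out 1 library gave 1071 to 3391 passing genes, 2 to 4 passing members and 13 to 42 listed genes. With no filter 20 listed genes passed. Of 22 named list genes that passed, 12 passed in every alternative that tested them. Depth is unknown for TPM, so its limit on low genes could not be stated.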
